A study of Mus musculus with 16 samples.

Results

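The GADD45 family (growth arrest and DNA damage-inducible genes) comprised the 3 genes Gadd45a, Gadd45b and Gadd45g, taken by gene name from the 54532 genes of the count table and followed across all 16 samples. The family was chosen because Gadd45g was strongly higher with beads, so the levels with and without beads are given below as a description with no test, and tests are given for the effect of PGE2. Murine TCF1+CD8+ T cells of genotype C57BL/6J were generated in vitro from naive CD8+ T cells of the spleen, which were activated in repeated cycles over 4 days with microbeads carrying antibodies to CD3 and CD28 in a low dose of IL-2, and their RNA was sequenced in bulk. Cells were kept for 1 h with or without PGE2 at 100 ng/ml and then for 4 h with IL-2 at 85 U/ml, either alone or together with anti-CD3/CD28 beads at 1 bead per cell, which engage the T cell receptor complex and the costimulatory receptor CD28. This gave 4 groups of 4 replicates, namely unstimulated cells (IL-2 alone), unstimulated cells with PGE2, stimulated cells (IL-2 and beads) and stimulated cells with PGE2. All groups, controls included, carried the IL-2 and the bead cycles of the preceding culture, and the sources used here do not say whether replicates were separate mice or cultures, so p-values measure the spread between these samples, which may be technical.

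GADD45 proteins are small acidic stress sensors without enzyme activity that act by binding partners. They bind and activate the kinase MEKK4 (gene Map3k4) upstream of p38 and JNK, they bind PCNA, the cell cycle inhibitor p21 and the CDK1-cyclin B complex, and they have been linked to active DNA demethylation through TET and TDG enzymes. In T cells Gadd45b and Gadd45g are known as genes induced by T cell receptor and cytokine signals that sustain p38 activity and IFN-γ production, whereas Gadd45a is best known as a p53 target that also restrains an alternative p38 pathway downstream of the T cell receptor.

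In the GRCm38 build, Gadd45a (ENSMUSG00000036390) lies on the minus strand at chr6:67035096-67037457, Gadd45b (ENSMUSG00000015312) on the plus strand at chr10:80930073-80932204 and Gadd45g (ENSMUSG00000021453) on the plus strand at chr13:51846678-51848468. The first annotated transcript of each gene has 4 exons, and the summed exon length used for counting was 1764 bases for Gadd45a, 1589 for Gadd45b and 1173 for Gadd45g. Exons of Gadd45a share 337 bases with E230016M11Rik, a noncoding transcript on the opposite strand. Since the use of strand in counting is not given in the sources used here, reads from these 2 genes cannot be told apart there and the values of Gadd45a carry this uncertainty. E230016M11Rik itself stood at 0.426 ± 0.138 CPM (SD, n = 4) in unstimulated cells and 0.427 ± 0.135 with PGE2, with at most 20 reads in a library. It stood at 0.197 ± 0.152 CPM in stimulated cells and 0.266 ± 0.142 in stimulated cells with PGE2. The part of this gene in the Gadd45a values was not tested. Gadd45b and Gadd45g overlapped no other annotated gene.

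The stretches before the start site are shown because Gadd45b and Gadd45g were both higher with beads while Gadd45a was not. They come from the RefSeq promoter table for GRCm38.p6, which held all 3 genes, and exclude bases inside annotated exons of the gene, giving 200 bases of the minus strand at chr6:67037458-67037657 for Gadd45a, 232 bases of the plus strand at chr10:80929841-80930072 for Gadd45b and 250 bases of the plus strand at chr13:51846425-51846674 for Gadd45g. Each reads 5′ to 3′ along the gene, and capitals mark matches on either strand to the octamer (ATGCAAAT, reverse ATTTGCAT), the CCAAT box (CCAAT), the E-box CACGTG, the NFAT core (GGAAA, reverse TTTCC) and the TATA box (TATAAA).
Gadd45a: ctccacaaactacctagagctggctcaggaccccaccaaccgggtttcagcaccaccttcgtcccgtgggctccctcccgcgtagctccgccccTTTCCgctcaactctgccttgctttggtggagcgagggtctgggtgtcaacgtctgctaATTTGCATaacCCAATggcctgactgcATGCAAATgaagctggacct
Gadd45b: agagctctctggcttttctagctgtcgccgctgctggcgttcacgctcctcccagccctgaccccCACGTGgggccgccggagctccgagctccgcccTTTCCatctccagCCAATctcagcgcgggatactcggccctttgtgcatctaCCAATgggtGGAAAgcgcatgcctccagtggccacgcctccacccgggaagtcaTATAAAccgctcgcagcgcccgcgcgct
Gadd45g: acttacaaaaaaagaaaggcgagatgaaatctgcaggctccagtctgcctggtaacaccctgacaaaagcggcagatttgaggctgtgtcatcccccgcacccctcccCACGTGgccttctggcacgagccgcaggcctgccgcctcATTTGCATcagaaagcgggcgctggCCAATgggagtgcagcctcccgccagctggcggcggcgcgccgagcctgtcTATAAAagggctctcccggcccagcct
The E-box was found before Gadd45b and Gadd45g and not in the Gadd45a window. It began 185 bases before the RefSeq start of Gadd45b and 142 bases before that of Gadd45g, and the TATA box began 46 and 27 bases before. The bases nearest the RefSeq start of Gadd45a, where the TATA boxes of the other genes lie, are annotated as exon and were not searched, so nothing is known here of a TATA box at Gadd45a. The octamer stood at 97 and 70 bases before the start of Gadd45a and at 103 bases before that of Gadd45g, and was not in the Gadd45b window. CCAAT boxes stood before all 3 genes, the NFAT core before Gadd45a and Gadd45b. Over the 250 bases before the start of all 32851 promoters in that table, the octamer was present in 1.60% of promoters, CCAAT in 33.8%, CACGTG in 6.02%, GGAAA in 55.6% and TATAAA in 12.4%. No match was present in these windows to TGACGTCA, the cAMP response element (1.55% of all promoters), to TGANTCA, the AP-1 site (6.75%), or to GTAAACA, a FOXO site (3.17%). The letters were picked with the results known, the windows of Gadd45a and Gadd45b were shorter than those of the background, and a match describes letters only.

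The libraries held 22678254 to 42950763 assigned reads. Levels are given as CPM (read counts relative to library depth) after scaling all 16 libraries together, and levels between genes are compared only as the deposited FPKM, which is per gene length. The 8 markers of CD8+ T cells were all above 1 CPM, summing to between 2965 and 5075 CPM per library. Tcf7, which encodes TCF1, averaged 1175 CPM in unstimulated cells, 1187 with PGE2, 308.5 in stimulated cells and 407 in stimulated cells with PGE2. Marker sums of other lineages reached at most 6.89 CPM for 5 B cell genes, 6.57 for 6 myeloid genes, 40.1 for 3 CD4+ T cell genes (14.5 to 26.6 in stimulated and 26.9 to 40.1 in unstimulated cells), 0.0999 for 3 NK cell genes and 0.821 for 4 erythroid genes. Ncr1, Klra8 and Hbb-bs had no read in any library. The part of the CD4+ T cell genes in the results below was not tested, and in bulk RNA fewer expressing cells and less RNA per cell cannot be told apart.

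Gadd45g, on whose bead response the family was picked, is given first. In unstimulated cells its 4 replicates stood at 20.7, 22.4, 20.1 and 23.2 CPM (mean 21.6 ± 1.46, SD), and in unstimulated cells with PGE2 at 15.7, 17.5, 18.4 and 18.1 CPM (17.4 ± 1.21). Stimulated cells had 214.7, 205.9, 199.3 and 157.5 CPM (194.3 ± 25.4), and stimulated cells with PGE2 had 89.1, 86.4, 53.4 and 30.5 CPM (64.9 ± 28.1). The 4 groups did not overlap anywhere, in the order stimulated, stimulated with PGE2, unstimulated, unstimulated with PGE2. Here and for the other members, the share of all genes whose groups separate in this way was not counted. The separation is therefore only described. The spread was uneven, with a coefficient of variation of 6.78% and 6.92% in the unstimulated groups, 13.1% in stimulated cells and 43.3% in stimulated cells with PGE2. Replicate 4 of the latter group was closest to the unstimulated level.

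Gadd45b had the highest mean FPKM of the 3 members in every group except stimulated cells without PGE2 (23.0, 23.4, 140.5 and 115.3 FPKM, against 17.5, 14.3, 157.8 and 52.6 for Gadd45g). Its replicates stood at 29.9, 31.1, 41.0 and 52.0 CPM in unstimulated cells (38.5 ± 10.3, SD) and at 29.9, 31.7, 38.5 and 54.5 CPM in unstimulated cells with PGE2 (38.7 ± 11.2). They stood at 267.7, 229.6, 242.4 and 197.6 CPM in stimulated cells (234.3 ± 29.2) and at 234.6, 195.9, 185.9 and 154.8 CPM in stimulated cells with PGE2 (192.8 ± 32.9). All 8 stimulated samples lay above all 8 unstimulated ones, whereas the groups with and without PGE2 overlapped in both states. In both unstimulated groups replicate 4 was the highest, and in both stimulated groups it was the lowest.

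Gadd45a was scarce, with 38 to 128 reads per library. It stood at 1.85, 1.73, 1.92 and 2.08 CPM in unstimulated cells (1.89 ± 0.144, SD) and at 3.73, 3.38, 3.53 and 3.00 CPM in unstimulated cells with PGE2 (3.41 ± 0.305). In stimulated cells it stood at 1.48, 1.40, 1.58 and 1.65 CPM (1.53 ± 0.110), and in stimulated cells with PGE2 at 2.62, 1.97, 2.59 and 2.52 CPM (2.42 ± 0.307). The samples with PGE2 lay above those without it in both states with no overlap, a separation whose share over all genes was not counted. The 4 group means ran in another order from those of Gadd45b and Gadd45g, highest in unstimulated cells with PGE2 and lowest in stimulated cells. The group order was the same in CPM and FPKM for all 3 members.

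**Figure D1:**
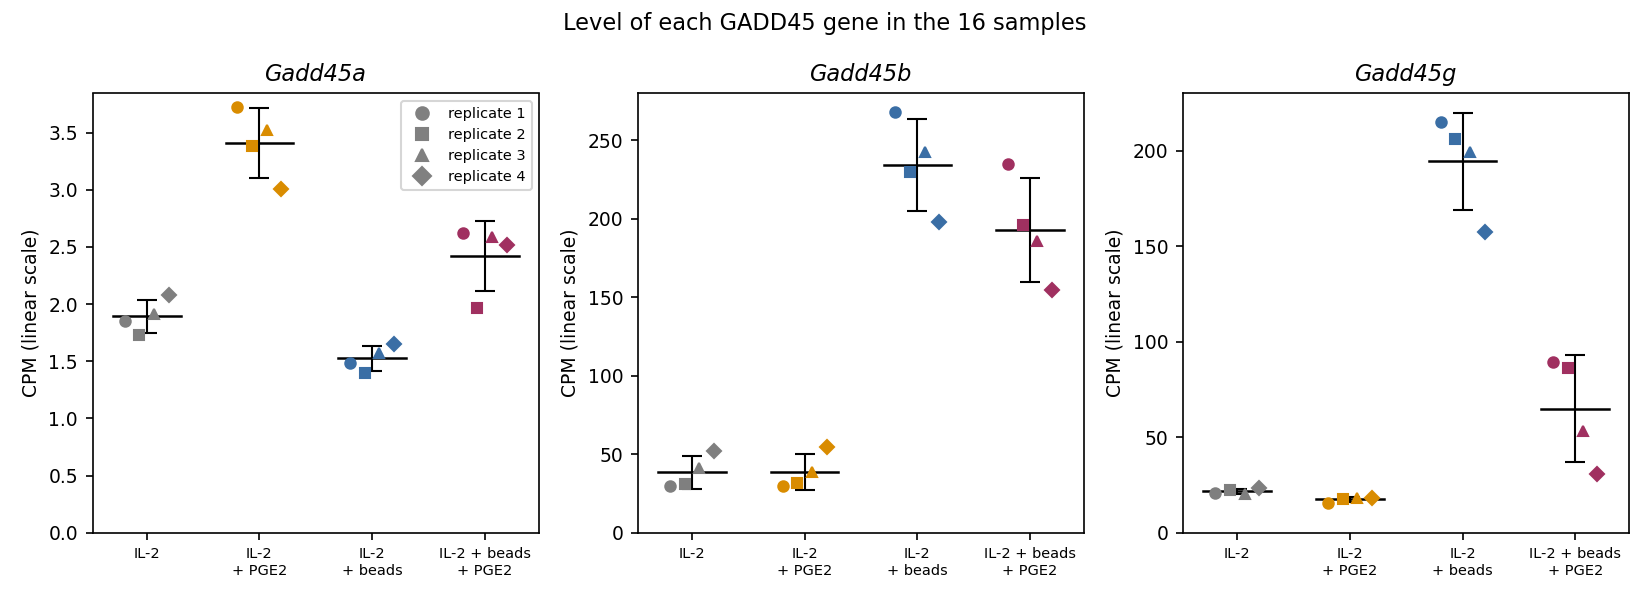
CPM (linear axis, from 0) of Gadd45a, Gadd45b and Gadd45g in each of the 16 samples; points are replicates, long lines group means and error bars ± 1 SD (n = 4 per group). Gadd45g with beads stands at 157.5 to 214.7 CPM without PGE2 and at 30.5 to 89.1 CPM with it, Gadd45b overlaps between those groups, and Gadd45a is higher with PGE2 in both states.

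The first question is how far the members differed with and without beads, which is given as a description because the family was picked on it. Without PGE2 the fitted difference for Gadd45g was 8.92-fold (3.16 on the log2 scale, SE 0.110), the 99th highest log2 fold change of 14205 genes tested. For Gadd45b it was 6.02-fold (2.59, SE 0.169), the 197th highest, and Gadd45a was at 0.795 of the unstimulated level (-0.33, SE 0.178). With PGE2 present Gadd45g was 3.77-fold higher with beads (1.92, SE 0.287), Gadd45b 5.03-fold (2.33, SE 0.201), and Gadd45a was at 0.722 of the level without beads (-0.47, SE 0.156), with ranks of 650 and 391 of 14507 genes for Gadd45g and Gadd45b. Of the genes tested, 31.7% passed as higher and 34.8% as lower with beads in the absence of PGE2, and 32.5% and 31.7% in its presence; a gene passed where its adjusted p was under 0.05. Both bead comparisons share samples with the PGE2 comparisons below.

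Same-numbered samples differed in how far the members went. Without PGE2 the bead folds of Gadd45g were 10.4, 9.19, 9.93 and 6.78 for replicates 1 to 4, and those of Gadd45b were 8.97, 7.39, 5.92 and 3.80. With PGE2 they were 5.67, 4.95, 2.90 and 1.69 for Gadd45g and 7.84, 6.19, 4.83 and 2.84 for Gadd45b. In every pair Gadd45g had the larger fold without PGE2 and Gadd45b the larger fold with it. Samples were matched by number here as a description, and no main fit was paired. Replicate 4 also had the smallest median rise over other genes. Over 1839 genes that passed as at least 2-fold higher with beads under PGE2, members left out, the median gene in replicates 1 to 4 stood 3.34, 3.23, 2.76 and 2.53-fold above unstimulated cells with PGE2, and without PGE2 the values over 1638 such genes were 3.02, 3.03, 2.74 and 2.62. The part of this difference between libraries in the Gadd45g values was not tested.

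**Figure D2:**
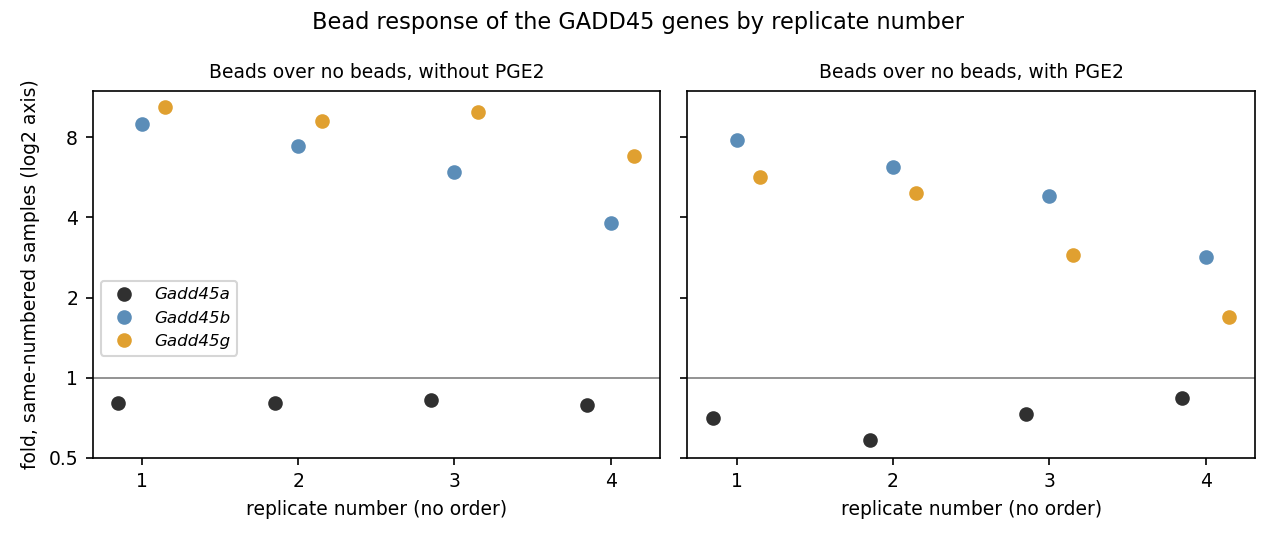
Fold between same-numbered samples with and without beads (log2 axis; the grey line marks 1) for the 3 members, without PGE2 on the left and with PGE2 on the right; replicate numbers have no order. Gadd45g points lie at 6.78 to 10.4 without PGE2 and at 1.69 to 5.67 with it, Gadd45a points lie below 1 in all 8 pairs. No main fit treated same-numbered samples as paired.

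In unstimulated cells with PGE2, Gadd45a was higher and Gadd45g lower, while Gadd45b showed no detectable difference. Gadd45a rose 1.82-fold (log2 0.86, SE 0.146, n = 4 per group, edgeR quasi-likelihood test, adjusted p = 0.00112). Between same-numbered samples the folds were 2.01, 1.95, 1.84 and 1.446. Gadd45g fell to 0.819 of its level (log2 -0.29, SE 0.0854, edgeR, adjusted p = 0.0264), and to 0.759 to 0.917 between same-numbered samples. For Gadd45b the log2 difference was 0.03 with a 95% interval from -0.44 to 0.49 (edgeR, adjusted p = 0.939). By this unpaired fit, differences of up to about that size in either direction remain possible. Between same-numbered samples the Gadd45b folds were 1.003, 1.019, 0.939 and 1.048. With the replicate number as a block its log2 value was 0.02 (edgeR, adjusted p = 0.712). Thus 1 of 3 members passed as higher and 1 as lower, where 12.9% of the 14505 genes tested passed as higher and 15.5% as lower. The call for Gadd45g rested on several libraries, since its adjusted p was 0.0904 without unstimulated replicate 2, 0.0707 without unstimulated replicate 4, 0.0531 without PGE2 replicate 1 and 0.0727 without PGE2 replicate 2 (edgeR), with log2 values between -0.27 and -0.23. In a fit of all 16 samples together the Gadd45g value was -0.31 (edgeR, adjusted p = 0.366). With the replicate number as a block it was -0.29 (edgeR, adjusted p = 0.00176).

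In stimulated cells with PGE2, Gadd45g was much lower, Gadd45a was higher and Gadd45b overlapped between the groups. Gadd45g fell to 0.336 of its level, 2.98-fold lower (log2 -1.58, SE 0.284, 95% interval -2.21 to -0.94, n = 4 per group; edgeR, adjusted p = 0.00809), the 27th lowest log2 fold change of 13922 genes tested. Between same-numbered samples it stood at 0.415, 0.420, 0.268 and 0.194 of the level without PGE2. With each library left out in turn its log2 value stayed between -1.77 and -1.34 with adjusted p up to 0.0329 (edgeR). Without replicate 4 of stimulated cells with PGE2, the lowest sample, the value was -1.34. The reference here, stimulated cells without PGE2, holds samples on which the family was picked for high Gadd45g. Such a pick favours a fall, so the rank and p-value of Gadd45g are not independent of it. Gadd45a rose 1.60-fold (log2 0.68, SE 0.168, edgeR, adjusted p = 0.0328), and by 1.41 to 1.77-fold between same-numbered samples. That call was lost without stimulated replicate 1 (adjusted p = 0.0735), 2 (0.1004) or 3 (0.0707) and without stimulated PGE2 replicate 1 (0.0513), 3 (0.102) or 4 (0.0806; all edgeR), while the log2 value stayed between 0.64 and 0.76. Gadd45b was at 0.827 of its level (log2 -0.27, SE 0.127, 95% interval -0.56 to 0.0098; edgeR, adjusted p = 0.198), lower in 4 of 4 pairs at 0.767 to 0.876. With the replicate number as a block, Gadd45b passed (log2 -0.28, edgeR, adjusted p = 0.00119). Deviations of same-numbered samples from their group means correlated at r of 0.190 to 0.423 in this comparison. Replicate 2 (0.190) correlated better with another number (0.247). Among all genes 6.04% passed as higher and 3.80% as lower. With the block the count of genes that passed went from 1370 to 5544 here and from 4122 to 6938 in unstimulated cells.

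The difference between both PGE2 effects, the interaction of PGE2 and beads, was tested in a fit of all 16 samples. For Gadd45g it was -1.27 on the log2 scale (SE 0.315, 95% interval -1.94 to -0.61), the 87th lowest of 15096 genes, and did not pass (edgeR, adjusted p = 0.0749). It passed in an edgeR fit without stimulated PGE2 replicate 4 (log2 -1.06, adjusted p = 0.00931) or 1 (-1.47, adjusted p = 0.0379), without the filter on low counts (-1.31, adjusted p = 0.00994) or with the replicate number as a block (-1.32, adjusted p = 0.0266), and with DESeq2 (-1.29, adjusted p = 0.00718). The deviations of same-numbered samples from their group means correlated best with each other in every PGE2 pair of unstimulated cells. In stimulated cells replicate 2 correlated better with another number (r = 0.247) than with its own (0.190). The same held for the bead pairs with PGE2 of replicates 2 (0.1135 against 0.0439) and 4 (0.157 against 0.0912). Over all alternatives the adjusted p of the Gadd45g interaction ran from 0.00718 to 0.251. The interaction was -0.17 for Gadd45a (95% interval -0.60 to 0.26; edgeR, adjusted p = 0.926) and -0.29 for Gadd45b (95% interval -0.85 to 0.28; edgeR, adjusted p = 0.869), so for these members a difference between the PGE2 effects was not detectable. Over all genes 0.517% passed as higher and 0.232% as lower in the interaction, and the stimulated samples in it are those on which the family was picked.

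**Figure D3:**
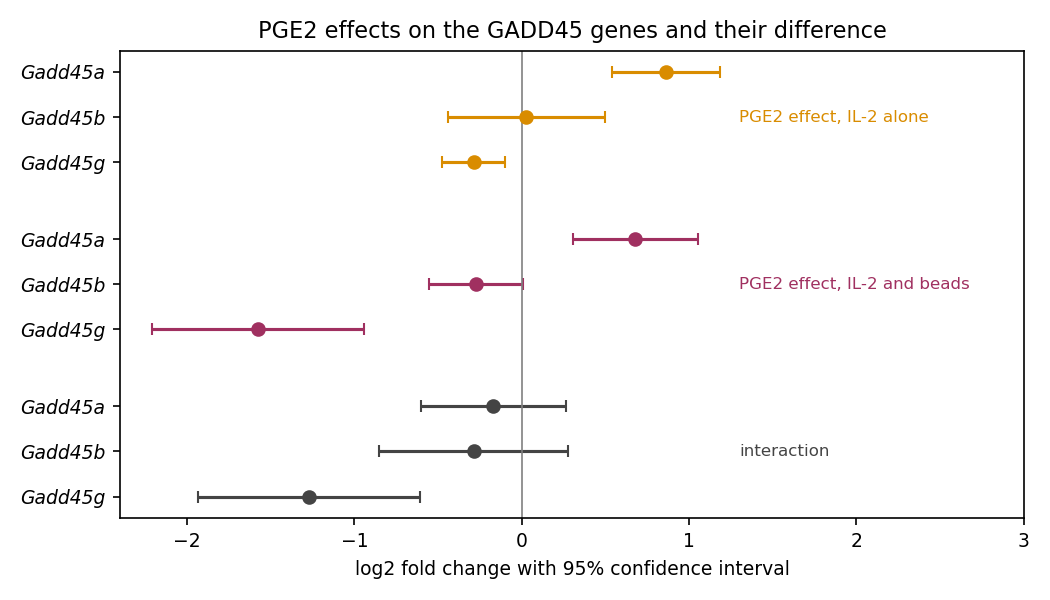
Log2 fold change by PGE2 in unstimulated cells (orange) and stimulated cells (purple), and the interaction of PGE2 and beads (grey), for the 3 members; bars are 95% confidence intervals of the edgeR fit. The intervals of Gadd45a lie above 0 and those of Gadd45g below 0 in both states, and both Gadd45b intervals include 0.

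Per gene length, the family was mostly Gadd45b and Gadd45g. The summed FPKM of the 3 genes was 41.5 ± 6.70 (SD, n = 4) in unstimulated cells, 39.6 ± 7.10 in unstimulated cells with PGE2, 299.1 ± 42.3 in stimulated cells and 169.3 ± 42.8 in stimulated cells with PGE2. Gadd45g made up 42.8%, 36.7%, 52.7% and 29.9% of that sum in this order, Gadd45b 54.8%, 58.4%, 47.0% and 69.3%, and Gadd45a 2.49%, 4.86%, 0.280% and 0.815%. The ratio of Gadd45g to Gadd45b FPKM, which does not depend on the scaling of libraries, was 1.09, 1.22, 1.11 and 1.08 in the 4 stimulated samples and 0.515, 0.597, 0.389 and 0.267 in those with PGE2. It was 0.938, 0.977, 0.664 and 0.605 in unstimulated cells and 0.711, 0.747, 0.648 and 0.450 with PGE2. Stimulated cells without PGE2 were thus the only group in which every sample had more Gadd45g than Gadd45b per length.

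**Figure D4:**
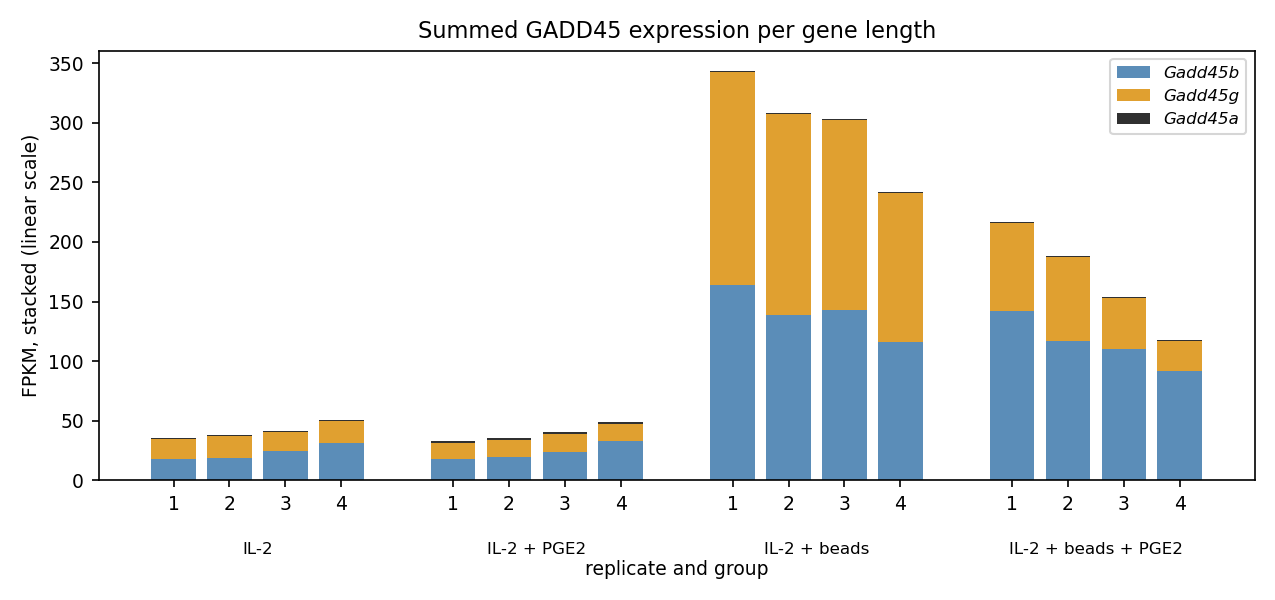
FPKM of Gadd45b, Gadd45g and Gadd45a stacked for each of the 16 samples (linear axis, from 0), by replicate and group. The sum is 241.6 to 343.3 in stimulated cells and 118 to 217 in stimulated cells with PGE2, and the Gadd45g share is 51.7 to 54.7% and 20.9 to 37.2%, respectively.

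The list of the MAP kinase route around GADD45 proteins held 18 tested genes, and included the T cell receptor kinases Lck and Zap70. With PGE2 5 passed as higher and 1 as lower in unstimulated cells, where 12.9% and 15.5% of all genes passed. None passed in stimulated cells, where 6.04% and 3.80% of all genes passed. The median log2 difference was 0.12 and -0.0097 in this order, against -0.0010 and -0.0061 over all genes. Map2k6, which encodes the p38 kinase MKK6, rose from 5.56 ± 0.607 to 8.27 ± 0.614 CPM with PGE2 in unstimulated cells (log2 0.59; edgeR, adjusted p = 0.00305). Mapk9, encoding JNK2, rose by 0.27 on the log2 scale (edgeR, adjusted p = 0.00328) and Rps6ka4, encoding the p38 target MSK2, by 0.25 (edgeR, adjusted p = 0.00561), while Lck, the proximal T cell receptor kinase, fell by 0.23 (edgeR, adjusted p = 0.0443), a call lost in 6 of 8 leave-one-out fits and 4 other settings. In stimulated cells the largest difference was 0.38 for Mapk12, encoding p38γ (edgeR, adjusted p = 0.455), which was scarce at 0.780 CPM without and 1.005 CPM with PGE2. Mapk11 differed by -0.37, at 38.8 CPM without and 29.9 CPM with PGE2 (edgeR, adjusted p = 0.0699). The partner kinase gene Map3k4, named for its role after its values were seen, stood at 40.1 ± 1.93 CPM in unstimulated and 23.1 ± 3.88 CPM in stimulated cells, and at 43.7 ± 2.16 and 24.4 ± 3.74 CPM with PGE2. With beads 7 genes of this list passed as higher and 8 as lower without PGE2, 7 and 6 with it. Of all genes, 31.7% and 34.8% passed with beads without PGE2, and 32.5% and 31.7% with it.

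Of the cell cycle partners, 2 passed with PGE2, both in unstimulated cells, where 12.9% of all genes passed as higher and 15.5% as lower. Pcna, the replication clamp, fell by 0.22 on the log2 scale with PGE2 in unstimulated cells (edgeR, adjusted p = 0.0338) and Gadd45gip1, whose product binds GADD45 proteins and belongs to the mitochondrial ribosome, fell by 0.33 (edgeR, adjusted p = 0.0387). Each call was lost in 5 of 8 leave-one-out fits, and that of Pcna in 1 and that of Gadd45gip1 in 2 other settings. The other 4 of 6 cell cycle partners did not pass, and none of the 6 passed in stimulated cells, where Ccnb2, encoding cyclin B2, differed most (log2 0.30; edgeR, adjusted p = 0.155). None of 10 tested demethylation and repair partners passed in either PGE2 comparison, the largest values being -0.20 for Apobec1 in unstimulated cells and 0.41 for Mbd4 in stimulated cells. With beads 1 of these 10 passed as higher and 6 as lower, both without and with PGE2, with medians of -0.53 and -0.63 on the log2 scale against -0.03 and 0.0022 over all genes. With beads 2 cell cycle partners passed as higher and 2 as lower without PGE2, 3 and 1 with it. The bead counts of both lists stand against 31.7% higher and 34.8% lower of all genes without PGE2, and 32.5% and 31.7% with it.

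Among 18 genes for regulators known to act on Gadd45 transcription, 3 passed as higher and 3 as lower with PGE2 in unstimulated cells, and 1 each way in stimulated cells. Of all genes, 12.9% and 15.5% passed in unstimulated and 6.04% and 3.80% in stimulated cells. Egr1, an immediate early transcription factor, fell from 32.2 ± 6.27 to 15.96 ± 3.68 CPM in unstimulated cells (log2 -0.99; edgeR, adjusted p = 0.00103) and from 291.1 ± 22.6 to 165.6 ± 38.7 CPM in stimulated cells (log2 -0.81; edgeR, adjusted p = 0.00886). Stat4, the transcription factor of the IL-12 receptor, rose by 0.36 in unstimulated cells (edgeR, adjusted p = 0.000332) and by 0.80 in stimulated cells (edgeR, adjusted p = 0.00723). Myc, a growth regulator and repressor of Gadd45a, fell by 0.97 in unstimulated cells (edgeR, adjusted p = 0.000422) and differed by -0.25 in stimulated cells (edgeR, adjusted p = 0.469). Trp53, which encodes p53, fell by 0.37 in unstimulated cells (edgeR, adjusted p = 0.000648), differed by 0.08 in stimulated cells (edgeR, adjusted p = 0.516) and was the 1 list gene of 65 to pass in the interaction (log2 0.46; edgeR, adjusted p = 0.0347), a call lost in 12 of 16 leave-one-out fits. With beads 10 of these regulators passed as higher and 7 as lower without PGE2, 11 and 7 with it. Of all genes, 31.7% and 34.8% passed with beads without PGE2, and 32.5% and 31.7% with it.

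In the IL-12, IL-18 and IFN-γ arm, in which Gadd45b and Gadd45g are known to act, Il12rb2 was the 1 gene to pass as higher with PGE2. Il12rb2, the signalling chain of the IL-12 receptor, rose with PGE2 from 89.6 ± 15.5 to 169.4 ± 26.0 CPM in unstimulated cells (log2 0.94; edgeR, adjusted p = 0.000360) and from 92.5 ± 24.8 to 261.6 ± 14.1 CPM in stimulated cells (log2 1.51; edgeR, adjusted p = 0.000723). In unstimulated cells Ifng, the cytokine gene itself, passed as lower at 10.46 ± 10.7 against 2.46 ± 2.11 CPM (log2 -2.05; edgeR, adjusted p = 0.0431), with a spread as large as its mean and a call lost in 5 of 8 leave-one-out fits and 4 other settings. Of the transcription factors of effector cells, Eomes fell by 1.12 (edgeR, adjusted p = 0.00495) and Tbx21 by 0.41 (edgeR, adjusted p = 0.00225) on the log2 scale. In stimulated cells Il12rb1 fell by 0.38 (edgeR, adjusted p = 0.0290) and Il18rap, a chain of the IL-18 receptor, by 0.36 (edgeR, adjusted p = 0.0325), and Ifng differed by -1.14 (edgeR, adjusted p = 0.184). The Il12rb1 call was lost in 4 of 8 leave-one-out fits and 2 other settings, that of Il18rap in 5 and 2. In all, 1 of 9 genes passed as higher and 3 as lower with PGE2 in unstimulated cells, and 1 and 2 in stimulated cells. Of all genes, 12.9% and 15.5% passed in unstimulated and 6.04% and 3.80% in stimulated cells. With beads 4 of the 9 passed as higher and 1 as lower without PGE2, and 5 and 2 with it. Of 4 other growth arrest and DNA damage genes, Ppp1r15a (GADD34), which restores translation after stress, rose by 0.33 in unstimulated cells (edgeR, adjusted p = 0.00422); none passed in stimulated cells, where Ddit3, encoding CHOP, differed by -0.40 (edgeR, adjusted p = 0.205). With beads 1 of the 4 passed as higher and 2 as lower without PGE2, and 0 and 2 with it. The bead counts of both lists stand against 31.7% higher and 34.8% lower of all genes without PGE2, and 32.5% and 31.7% with it.

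Over all lists 10 of 65 tested genes passed as higher and 9 as lower in unstimulated cells, and 2 and 3 in stimulated cells. Over all genes tested, 12.9% passed as higher and 15.5% as lower in unstimulated cells and 6.04% and 3.80% in stimulated cells. With beads 25 of the 65 passed as higher and 26 as lower without PGE2, 27 and 24 with it. Over all genes these shares were 31.7% and 34.8% without PGE2, and 32.5% and 31.7% with it. Against these shares the counts are no result about the lists. Of the 19 and 5 calls with PGE2 in unstimulated and stimulated cells, 11 and 3 held when each library was left out in turn. With the replicate number as a block the counts were 24 higher and 16 lower in unstimulated and 11 and 17 in stimulated cells. By list, in unstimulated cells, the block gave 8 higher and 2 lower in the MAP kinase route, 11 and 5 among regulators, 1 and 5 in the IL-12 arm, 0 and 3 among cell cycle partners, 3 and 0 among demethylation partners and 1 and 1 among the other growth arrest genes. In stimulated cells it gave 2 and 3, 5 and 5, 1 and 5, 1 and 1, 2 and 2, and 0 and 1 in the same order.

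**Figure D5:**
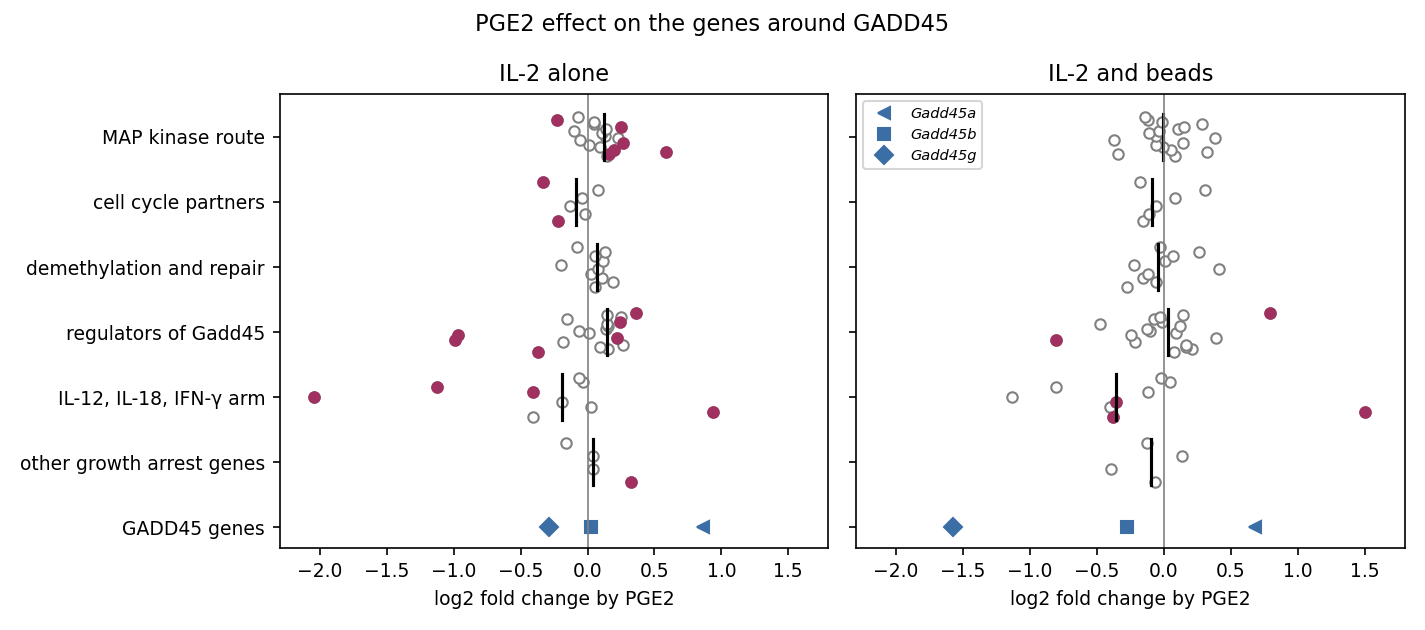
Log2 fold change by PGE2 in unstimulated cells (left) and stimulated cells (right) for the tested genes of 6 lists around GADD45 and for the members (blue); each circle is a gene, filled where the adjusted p (edgeR) was under 0.05, and black bars are list medians. Filled circles number 19 on the left and 5 on the right, and Gadd45g lies at -1.58 on the right.

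The genes whose log2 CPM over the 16 samples was most like each member were looked up among the 12250 genes that averaged 1 CPM or more. For Gadd45g they were Osm (r = 0.987), Ksr1 (0.980), Ptger4 (0.980), Nfatc1 (0.977) and Lta (0.977). Osm encodes the cytokine oncostatin M, Ksr1 a scaffold of the ERK route, Nfatc1 a transcription factor of calcium signals, Lta the cytokine lymphotoxin α, and Ptger4 the PGE2 receptor EP4. Ptger4 averaged 33.3 CPM in unstimulated cells, 22.2 with PGE2, 110.3 in stimulated cells and 58.6 in stimulated cells with PGE2. For Gadd45b the closest were Cd83 (0.996), Nr4a1 (0.996), Irf8 (0.995), Alcam (0.993) and Mir155hg (0.993), among which Nr4a1, an immediate early nuclear receptor of T cell receptor signals, averaged 78.7, 74.4, 1198 and 941.7 CPM over the groups in the same order. For Gadd45a they were Tmem123 (0.971), Camk4 (0.970), Sipa1l1 (0.964), Fth1 (0.963) and Bend4 (0.962), and Camk4, a calcium and calmodulin dependent kinase, averaged 164.5, 348.4, 104.3 and 214.0 CPM. These are Pearson correlations over 16 samples in 4 groups, which share the group differences, and they are given with no p. Between members r was 0.91 for Gadd45b and Gadd45g, -0.49 for Gadd45a and Gadd45b and -0.69 for Gadd45a and Gadd45g.

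Of the neighbouring genes, 2 were well expressed. Sema4d, the next gene on the lower side of Gadd45g at a distance of 52931 bases, stood at 398.9 ± 26.2 CPM in unstimulated and 407.2 ± 7.36 CPM in stimulated cells, and fell with PGE2 by 0.31 on the log2 scale in unstimulated cells (edgeR, adjusted p = 0.00550) and by 0.36 in stimulated cells (edgeR, adjusted p = 0.00370). Lmnb2, which encodes lamin B2 and lies 11828 bases from Gadd45b, stood at 52.9 ± 4.18 CPM in unstimulated and 60.8 ± 1.63 CPM in stimulated cells, and at 45.9 ± 2.02 and 66.2 ± 2.48 CPM with PGE2. It passed as higher with beads without PGE2 (log2 0.19; edgeR, adjusted p = 0.0438) and with it (log2 0.54; edgeR, adjusted p = 2.79e-05). Gng7, on the other side of Gadd45b, was at most 0.783 CPM in any library, and Gm26651, A430010J10Rik and Gm25260, the other neighbours, had at most 4, 2 and 0 reads in a library.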

How the data were processed

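RNA of 16 samples was poly(A)-enriched and sequenced in paired-end mode. The authors deposited a table of read counts per gene, made per the labels with HISAT2 2.0.5 and featureCounts 1.5.0-p3 on GRCm38, and FPKM values beside them. FPKM is relative to library depth and gene length. The submitters' notes also name DESeq2 1.20.0. Whether counting used strand is not given in the sources used here. Gene coordinates in the table matched GENCODE M21.

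Counts as deposited were analysed with edgeR 4.0.16 in R 4.3.3, with TMM scaling, filterByExpr at a minimum count of 10, its quasi-likelihood F-test, and p-values adjusted by Benjamini-Hochberg over all genes tested. Each comparison was fitted on its 8 samples with no covariate, and the interaction on 16. A gene passed at an adjusted p under 0.05. Errors are SD over 4 replicates, or the SE of a log2 fold change; intervals are 95%. The libraries held 22678254 to 42950763 assigned reads, and the scale of CPM rests on TMM factors of 0.88 to 1.089. Nearest patterns used log2 CPM with a prior count of 2. The fitting code was tested on simulated counts.

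The members and the lists of partner genes, 67 genes of which 65 were tested, were chosen from general knowledge with earlier results of these data known. Named list genes are those that passed in a PGE2 comparison, or else differed most in it, at most 4 per list and comparison. Ddit3 named 2 overlapping entries, of which the one with more reads was used.

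Same-numbered samples deviated together from their group means in every pair of the PGE2 comparisons (r 0.137 to 0.444 in unstimulated and 0.190 to 0.423 in stimulated cells) and of the bead comparison without PGE2 (0.112 to 0.359), so the numbers were taken to pair these samples. The support was weaker in stimulated cells, where replicate 2 (0.190) correlated better with another number (0.247). The pairing comes from the data alone, since what a number marks is not given in the sources used here. With PGE2 the bead pairs ranged from 0.0439 to 0.281, and replicates 2 and 4 correlated better with another number. No main fit was paired. The replicate block was an alternative fit for every comparison, including the bead comparison with PGE2 and the interaction, where the support for pairing was weaker. Alternatives were RLE and upper-quartile factors, no filter on low counts, DESeq2 1.42.0, limma 3.58.1 on log2(FPKM + 1) or log2(FPKM + 0.1), a replicate block, 1 fit of all samples, a fold threshold of 2 and each library left out.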

Additional observations from a re-analysis of the deposited data

Results flagged for a closer look

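One value stood apart by Dixon's criterion at the 95% level among 12 sets of 4 replicates (3 genes in 4 groups). Gadd45a in stimulated cells with PGE2 was at 1.97 CPM in replicate 2, from 47 reads, where the other replicates were at 2.52 to 2.62 CPM. The criterion marks about 5% of sets by chance.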

How the results depend on the processing

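The rise of Gadd45a with PGE2 in unstimulated cells and the fall of Gadd45g with PGE2 in stimulated cells kept their direction and passed at an adjusted p under 0.05 in every alternative fit, with log2 values of 0.50 to 0.92 (adjusted p up to 0.00533) and -1.77 to -1.34 (up to 0.0471). The fold threshold of 2 was met by Gadd45g (2.98-fold lower) and not by Gadd45a (1.82-fold). The reference of this Gadd45g fall holds samples on which the family was picked, which no alternative fit changes. Where another result changed, the cause was not tested. Gadd45g with PGE2 in unstimulated cells did not pass in the fit of all samples (-0.31, adjusted p = 0.366) or without 1 of 4 libraries (leave-one-out -0.32 to -0.23). Gadd45a with PGE2 in stimulated cells did not pass without the count filter (0.68, adjusted p = 0.0672), with limma on log2(FPKM + 1) without a filter (0.34, adjusted p = 0.0662) or without 1 of 6 libraries (leave-one-out 0.64 to 0.76). The near-zero value of Gadd45b in unstimulated cells changed sign without untreated replicate 1 (-0.08) or 2 (-0.04) or PGE2 replicate 4 (-0.19), over a leave-one-out range of -0.19 to 0.21. The Gadd45g interaction passed without the count filter (-1.31, adjusted p = 0.00994) and with DESeq2 (-1.29, adjusted p = 0.00718), and ranged from -1.47 to -1.06 in leave-one-out fits. Gadd45a differed by -0.15 with beads without PGE2 under limma on log2(FPKM + 1) with no filter, against -0.33.

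With the replicate block, the numbers of genes that passed were 6938 for PGE2 in unstimulated cells, 5544 in stimulated cells and 408 in the interaction (113 without it). Gadd45b with PGE2 in stimulated cells passed (-0.28), and so did the Gadd45g interaction (-1.32, edgeR, adjusted p = 0.0266). Yet some samples correlated better with another number than with their own, in the PGE2 pairs of stimulated cells and the bead pairs with PGE2. The block changed no other call of the members. Requiring a fold of 2, 490 (of 4122), 243 (of 1370), 3301 (of 9440) and 3210 (of 9309) genes passed for PGE2 in unstimulated and stimulated cells and beads without and with PGE2, and 35 in the interaction. For PGE2 in stimulated cells the count was 2066 with DESeq2, 2161 in the fit of all samples, 679 with unfiltered limma, and 630 to 1854 in leave-one-out fits; it was 760, 630 and 792 without stimulated replicates 1, 2 and 3 and 630 and 843 without stimulated PGE2 replicates 3 and 4. For the interaction it was 234 with DESeq2, 43 and 53 with limma at pseudocounts of 1 and 0.1 (16 higher and 27 lower, 27 and 26, against 78 and 35), 37 unfiltered (11 and 26), and 44 (without unstimulated replicate 2) to 217 (without stimulated PGE2 replicate 4) in leave-one-out fits. Upper-quartile factors moved the median of all genes to -0.13 with beads, both without and with PGE2, and turned no direction of a member. Limma with a filter gave no value for Gadd45a with beads without PGE2, whose mean FPKM was under 1. Gadd45a, at 38 to 128 reads per library, is the member whose precision depth limits most.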
